A study of Mus musculus with 6 samples.

Results

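Expression of 10 genes of the transforming growth factor β (TGF-β) pathway was compared across Naive, Th17 and Th1 cells. The genes were taken by symbol, namely the ligands *Tgfb1* and *Tgfb3*, the receptors *Tgfbr1* and *Tgfbr2*, the signal transducers *Smad2*, *Smad3* and *Smad4*, the inhibitors *Smad7* and *Skil*, and the target gene *Tgfbi*. All 10 were among the 24223 genes counted, and all 10 passed the filter on low counts that left 13607 genes to test. RNA-Seq was made from 6 libraries, 2 per cell type. Naive libraries came from CD4+CD44- cells isolated from pooled lymph nodes and spleens of C57BL/6 mice aged 1 to 2 months. Both Th cultures were started from such cells, stimulated through CD3 and CD28, given an antibody to IL-4 and collected at day 5. Th17 cultures also received TGF-β, IL-6, IL-1β, IL-23 and an antibody to IFN-γ, and Th1 cultures received IL-12 and IL-2. No gene was altered in any group, and no sort after culture is described in the methods. Activation, time in culture and polarization thus separate both Th groups from Naive together, and added TGF-β cannot be told apart from the other Th17 additions.

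TGF-β is secreted in a latent complex and must be freed before it can bind. The active dimer brings together the type II receptor (Tgfbr2) and the type I receptor (Tgfbr1), a kinase that phosphorylates Smad2 and Smad3, which then join Smad4 and enter the nucleus. Smad7 blocks the type I receptor, and SnoN, the product of *Skil*, represses Smad complexes on DNA. In CD4 T cells TGF-β together with IL-6 is used to obtain Th17 cells, whereas TGF-β counteracts the Th1 programme.

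The libraries held between 17742158 and 69080017 counts, with replicate 1 the deeper library of each cell type. Expression is given as CPM, each gene's share of its library's counts scaled to a common total, after scaling by TMM, a method that corrects library totals for a few very abundant genes. The replicates are described as biologically independent, without saying which animals went into each, and the p-values measure the spread between these libraries. All 7 T cell markers examined (*Cd3e*, *Cd3d*, *Cd3g*, *Cd4*, *Lck*, *Cd5* and *Cd28*) were above 10 CPM in every library. The 4 Th17 markers (*Il17a*, *Il17f*, *Il23r* and *Ccr6*) summed to 1336 and 1817 CPM in the Th17 libraries and to at most 4.85 CPM elsewhere. The 5 Th1 markers (*Tbx21*, *Ifng*, *Cxcr3*, *Il12rb2* and *Gzmb*) summed to 1668 and 1226 CPM in Th1 and to 473 and 400.4 CPM in Th17. In the Naive libraries they summed to 91.8 and 81.4 CPM. *Gzmb* made up most of the Th17 sums, at 379 and 333 CPM. *Gzmb* and *Ifng* were called higher in Th17 than in Naive, and *Tbx21* and *Cxcr3* were called lower. Markers of other cells were present too. Erythroid markers summed to 573 and 103 CPM in the Naive libraries and to at most 2.15 CPM in the cultures, with the 4 globin genes of that list at 0 counts in all libraries. B cell markers stayed between 2.94 and 22.7 CPM in sum. CD8 T and NK cell markers summed to 28.1 and 23.1 CPM in the Naive libraries and to between 6.99 and 11.3 CPM in the cultures. Of these, *Klrb1c* was called lower in both cultures than in Naive. Neutrophil, monocyte and macrophage, and mast cell lists are given with *Tgfbi*, and megakaryocyte markers with *Thbs1*.

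*Tgfbi* was the member with a call in all 3 comparisons, and *Skil* was called between Th17 and Th1. *Tgfbi* was higher in Th17 than in Naive by 7.45-fold and lower in Th1 than in Naive by 12.0-fold. *Skil* was 3.16-fold higher in Th17 than in Th1. In Th17 compared with Naive, 1 of the 10 members was called higher, against 4.01% of all genes tested, and 0 were called lower by edgeR, against 1.43%. One member was lower at an unadjusted p-value under 0.05, and DESeq2 called 1 lower. In Th1 compared with Naive, 0 members were called higher by edgeR (4.64% of all genes) and 1 lower (2.81%). At an unadjusted p-value under 0.05, 1 member was higher and 4 were lower, and DESeq2 called 0 higher and 2 lower. In Th17 compared with Th1, 2 members were called higher (2.83% of all genes) and 0 lower by edgeR (2.7%). At an unadjusted p-value under 0.05, 2 were higher and 2 lower, and DESeq2 called 2 higher and 1 lower. The shares of all genes given here and below are for the edgeR calls. No such share is given for counts at an unadjusted p-value or by DESeq2, so those counts have no background to be read against. The median absolute log2 fold change of the members was 0.31 in Th17 and 0.69 in Th1 relative to Naive and 0.54 between the Th types, beside 0.59, 0.50 and 0.60 over all genes tested. The comparisons with Naive share the Naive libraries, and each pair of comparisons shares 2 libraries.

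**Figure D1:**
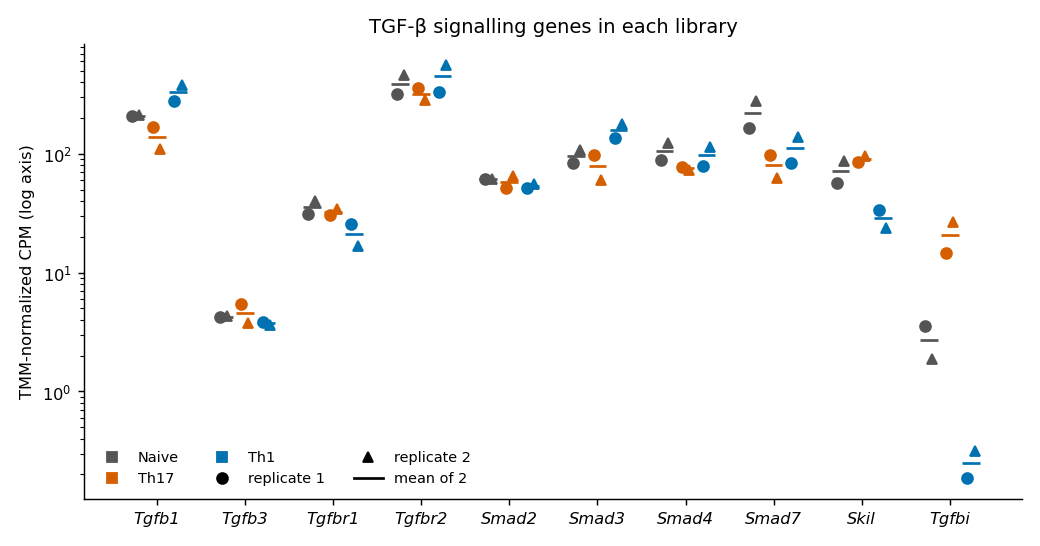
TMM-normalized CPM (log axis) of the 10 genes in each library, with circles for replicate 1, triangles for replicate 2 and bars for the mean of 2. *Tgfbi* spans from 0.186 CPM in a Th1 library to 26.6 CPM in a Th17 library, while *Smad2* stays between 51.2 and 65.4 CPM in all 6.

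Since *Tgfbi* was the member with the largest log2 fold changes, the sequence ahead of its start is shown. *Tgfbi* encodes a secreted extracellular matrix protein, and its name comes from its induction by TGF-β. The gene is protein-coding and lies on chromosome 13 of GRCm38 from 56609523 to 56639562 on the plus strand. The RefSeq promoter window up to the base before the GENCODE gene start is 187 bases long (GRCm38.p6, chr13:56609336-56609522, plus strand). Capitals mark matches to CAGAC, the short Smad box, which read GTCTG here because both lie on the minus strand.

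Tgfbi promoter: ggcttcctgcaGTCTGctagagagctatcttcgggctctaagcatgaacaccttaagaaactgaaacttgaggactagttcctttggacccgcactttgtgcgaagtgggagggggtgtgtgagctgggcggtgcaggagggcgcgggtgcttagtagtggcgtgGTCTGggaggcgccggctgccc

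The window held 2 matches to CAGAC, counting both strands. Of 27025 RefSeq promoter windows of the same length, 34.0% held at least 1 such match, so the letters are common. The palindrome GTCTAGAC, a Smad-binding element that shares the letters AGAC with the box, was absent from the window and present in 0.155% of windows. TGANTCA, the AP-1 motif, was absent as well and present in 5.3% of windows.

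*Tgfbi* had 3.57 and 1.88 CPM in Naive replicates 1 and 2, 14.7 and 26.6 CPM in Th17, and 0.186 and 0.316 CPM in Th1. Both Th17 libraries were above both Naive libraries, and both Th1 libraries were below them, without overlap among the 3 groups. The Th1 values rest on 12 and 5 counts, against 961 and 471 counts in Th17. The log2 fold change was 2.90 for Th17 against Naive (standard error, SE, 0.49, adjusted p = 0.0044) and -3.59 for Th1 against Naive (SE 0.58, adjusted p = 0.003). Between Th17 and Th1 it was 6.49 (SE 0.62, adjusted p = 0.00031), an 89.6-fold difference. That last call held with each of the 6 libraries left out, at values between 5.97 and 6.84. The call against Naive in Th17 was lost without Naive replicate 2 (2.52, adjusted p = 0.017), without Th17 replicate 1 (3.28, adjusted p = 0.01) and without Th17 replicate 2 (2.41, adjusted p = 0.044). The call in Th1 was lost without Naive replicate 1 (-3.05, adjusted p = 0.012) and without Th1 replicate 1 (-3.07, adjusted p = 0.03). In these fits the remaining library of a group is assumed to vary like the other groups.

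*Tgfbi* is also a well-known gene of monocytes and macrophages, and myeloid marker lists were highest in Th17, where *Tgfbi* was highest. The 16 neutrophil markers summed to 3431 and 3261 CPM in Th17, 423 and 245 CPM in the Naive libraries, and 44.9 and 68.2 CPM in Th1. Of these, 12 were called higher and 1 lower in Th17 than in Naive, and 15 were higher than in Th1. In Th1 relative to Naive, where *Tgfbi* fell, 5 neutrophil markers were called higher and 5 lower. The monocyte, macrophage and dendritic cell markers, 15 of 16 found by symbol, summed to 877 and 1663 CPM in Th17, 199.6 and 178 CPM in the Naive libraries, and 268 and 347 CPM in Th1. Among the 14 of them tested, 5 were called higher in Th17 than in Naive and 6 higher than in Th1. Their sum was higher in Th1 than in Naive, unlike *Tgfbi*, with 2 called higher and 1 lower. *Ccr2* and *Ctss*, singled out after their values were seen, made up most of these sums in Naive and Th1. *Ccr2* had 31.5 and 25.1 CPM in the Naive libraries, 465 and 459 CPM in Th17, and 132 and 151 CPM in Th1. *Ctss* had 128 and 133 CPM in the Naive libraries, 161 and 286 CPM in Th17, and 118 and 182 CPM in Th1. *Lyz2*, likewise singled out, had 25.8 and 8.91 CPM in the Naive libraries, 223 and 762 CPM in Th17, and 6.31 and 10.6 CPM in Th1. *Ccr2*, *Ctss* and *Lyz2* together made up most of the Th17 sums. Of the 15 markers, 3 were higher in both Th1 libraries than in both Naive libraries, and 6 were lower. The share of all genes separated in this way is not given, so these counts are not read as a result about the markers. *Ms4a7* had 0 counts in both Naive libraries and *C1qa*, a complement gene of tissue macrophages, had 0 counts in both Th1 libraries. The 10 mast cell and basophil markers summed to 242 and 484 CPM in Th17, 177 and 55.8 CPM in the Naive libraries, and 90.2 and 71.2 CPM in Th1, with 4 called higher in Th17 than in Naive and 1 higher than in Th1. The mast cell sums of Th1 and Naive overlapped, with 0 called in either direction by edgeR, 4 higher and 2 lower at an unadjusted p-value under 0.05, and 1 higher and 1 lower by DESeq2. Within Th17, *Tgfbi* and the monocyte, mast cell, megakaryocyte and T cell lists were higher in replicate 2, and the neutrophil and B cell lists were not. The T cell list summed to 2737 and 3429.6 CPM in Th17 replicates 1 and 2. The part of myeloid cells in the *Tgfbi* values was not tested. In bulk libraries, fewer cells of a type and less RNA per cell cannot be told apart.

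**Figure D2:**
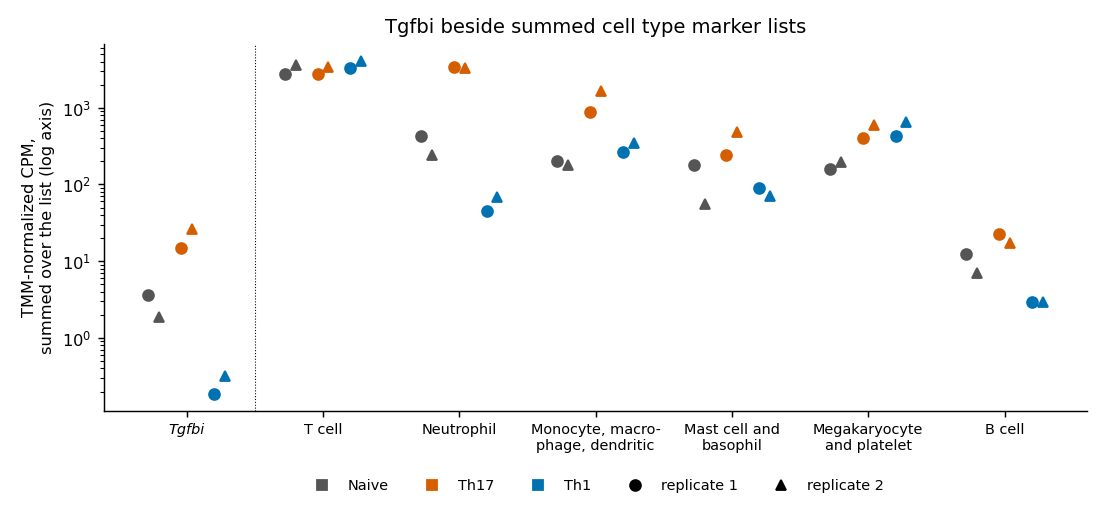
TMM-normalized CPM (log axis) of *Tgfbi* and of 6 marker lists, each summed over its genes, in the 6 libraries, with circles for replicate 1 and triangles for replicate 2. T cell markers sit between 2737 and 4107 CPM in every library, whereas neutrophil markers run from 44.9 CPM in Th1 to 3431 CPM in Th17.

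The 5 genes whose profile lay nearest to that of *Tgfbi* were *Ctsh*, *Hp*, *Trem3*, *Ear1* and *Cebpe*. Likeness was the root mean square difference of gene-centred log2 CPM over the 6 libraries, among 13607 genes, and it was 0.33 for *Ctsh*, 0.44 for *Hp*, 0.48 for *Trem3*, 0.52 for *Ear1* and 0.53 for *Cebpe*. *Ctsh*, which encodes the lysosomal protease cathepsin H, had 5.39 and 1.63 CPM in the Naive libraries, 11.1 and 24.9 CPM in Th17, and 0.139 and 0.253 CPM in Th1. *Cebpe*, a transcription factor of granulocyte maturation that is in the neutrophil list, had 28.7 and 19.6 CPM in Th17. *Ear1*, an eosinophil ribonuclease gene, had 0 counts in both Th1 libraries, so its likeness rests partly on the prior count.

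*Skil* encodes SnoN, a repressor that binds Smad complexes and is itself induced by TGF-β. The gene occupies chromosome 3 from 31095058 to 31122577. *Skil* reached 56.5 and 87.0 CPM in the Naive libraries, 84.9 and 96.5 CPM in Th17, and 33.4 and 23.8 CPM in Th1. Th1 was below the other 4 libraries, and Th17 overlapped with Naive. The log2 fold change between Th17 and Th1 was 1.66 (SE 0.31, adjusted p = 0.0072). Removing either Th17 library or either Th1 library ended the call, with values of 1.76 and 1.56 without Th17 replicates 1 and 2 and of 1.94 and 1.43 without Th1 replicates 1 and 2 (adjusted p = 0.028, 0.043, 0.017 and 0.053). In Th1 compared with Naive it was -1.32 (SE 0.31, adjusted p = 0.016), not called by edgeR and called by DESeq2 (adjusted p = 0.0014). For Th17 against Naive it was 0.34 (SE 0.30, adjusted p = 0.45).

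*Smad7*, the inhibitory Smad that occupies the type I receptor and brings in ubiquitin ligases, lies on chromosome 18 from 75367529 to 75395935. It had 164 and 281 CPM in the Naive libraries, 98.1 and 62.2 CPM in Th17, and 84.3 and 138 CPM in Th1. Both Naive libraries were above the 4 culture libraries, and the Th17 and Th1 values overlapped. The log2 fold change was -1.47 in Th17 relative to Naive (SE 0.38, adjusted p = 0.028), a difference that edgeR did not call and DESeq2 did (adjusted p = 0.0043). In Th1 it was -1.0 (SE 0.37, adjusted p = 0.10), and between Th17 and Th1 it was -0.47 (adjusted p = 0.39).

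**Figure D3:**
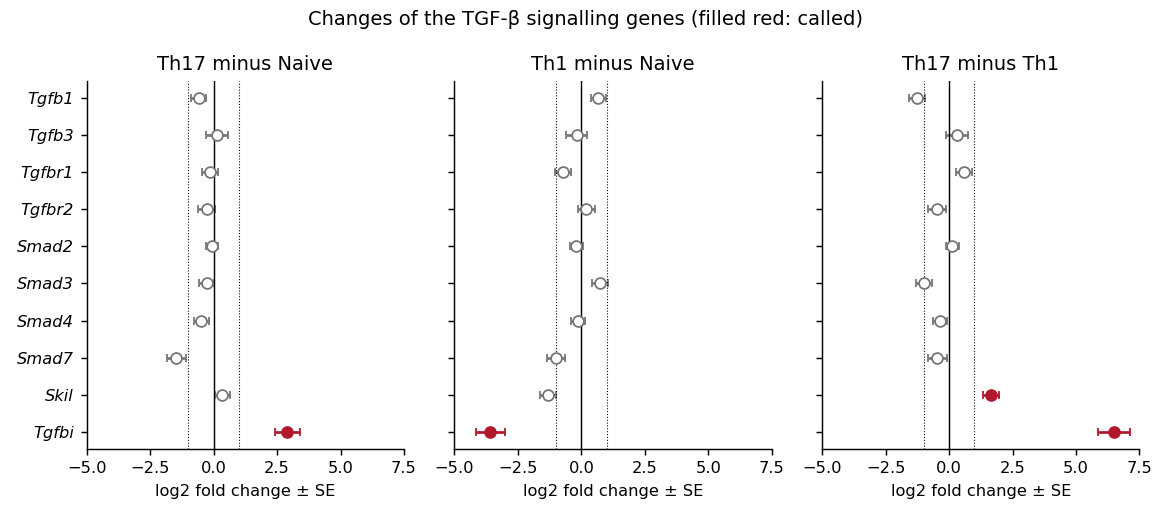
log2 fold change of each gene in the 3 comparisons, with bars for the standard error from edgeR, dotted lines at -1 and 1, and filled red points for called genes. *Tgfbi* is at 2.90, -3.59 and 6.49, *Skil* is filled between Th17 and Th1, and the other points are open.

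Of the ligands, *Tgfb1*, the main TGF-β of lymphocytes, had far higher CPM per kilobase than *Tgfb3* in all 3 cell types. *Tgfb1* lies on chromosome 7 from 25687002 to 25705077 and *Tgfb3* on chromosome 12 from 86056745 to 86079041. *Tgfb1* had 207 and 211 CPM in the Naive libraries, 168 and 109.8 CPM in Th17, and 279.6 and 381 CPM in Th1. The Th17 libraries were the lowest and the Th1 libraries the highest, with no overlap among the groups. The log2 fold change between Th17 and Th1 was -1.25 (SE 0.31, adjusted p = 0.024), not called by edgeR and called by DESeq2 (adjusted p = 0.0014). Against Naive it was -0.59 in Th17 (adjusted p = 0.20) and 0.66 in Th1 (adjusted p = 0.18). *Tgfb3* had 4.2 and 4.31 CPM in the Naive libraries, 5.45 and 3.79 CPM in Th17, and 3.87 and 3.60 CPM in Th1, from 57 to 356 counts. The Th17 replicates of *Tgfb3* lay on either side of the Naive values, and its largest difference, between Th17 and Th1, was 0.31 (SE 0.42, adjusted p = 0.63).

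No difference between cell types was called for either receptor. *Tgfbr1*, the type I kinase, lies on chromosome 4 from 47353222 to 47414931 and had 31.1 and 39.8 CPM in the Naive libraries, 30.3 and 34.3 CPM in Th17, and 25.7 and 16.9 CPM in Th1. Its Th1 values were below those of the other 4 libraries. The log2 fold change in Th1 relative to Naive was -0.73 (SE 0.31, adjusted p = 0.15). *Tgfbr2*, the ligand-binding type II receptor, lies on chromosome 9 from 116084293 to 116175360 and had 319.9 and 462 CPM in the Naive libraries, 358 and 284 CPM in Th17, and 335 and 564 CPM in Th1. Its groups overlapped in every comparison, and no log2 fold change exceeded 0.48 in size. The value in Th1 relative to Naive was 0.20 (SE 0.34, adjusted p = 0.75), and it was -0.07 with library size alone as the scaling.

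Among the signal transducers, *Smad2* had the narrowest range over the 6 libraries and *Smad3* the largest difference between Th types. *Smad2* (chromosome 18, 76241580 to 76310963) had 60.9 and 61.6 CPM in the Naive libraries, 51.5 and 65.4 CPM in Th17, and 51.2 and 55.8 CPM in Th1. Its 3 log2 fold changes were between -0.20 and 0.13, each with an SE of 0.25. *Smad3* (chromosome 9, 63646767 to 63757994) had 83.3 and 108 CPM in the Naive libraries, 97.5 and 59.9 CPM in Th17, and 137 and 179 CPM in Th1. The Th1 libraries of *Smad3* were above the other 4, with a log2 fold change of -1.0 in Th17 compared with Th1 (SE 0.31, adjusted p = 0.054) and 0.72 in Th1 relative to Naive (SE 0.31, adjusted p = 0.15). *Smad4*, the shared partner, lies on chromosome 18 from 73639009 to 73703780 and had 89.0 and 123 CPM in the Naive libraries, 77.6 and 73.8 CPM in Th17, and 79.3 and 115 CPM in Th1. Both Th17 values of *Smad4* were below the other 4, with a log2 fold change of -0.49 compared with Naive (SE 0.29, adjusted p = 0.26). No difference in these 3 genes was called.

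The genes could be ranked within a cell type once CPM were divided by the exon length in kilobases. In Naive, the mean level was 49.1 CPM per kilobase for *Smad7*, 47.7 for *Tgfbr2* and 41.5 for *Tgfb1*, and the replicate ranges of these 3 overlapped. *Smad4* followed at 28.6 and *Smad3* at 17.3 CPM per kilobase, each separate from its neighbours. *Skil* at 7.40, *Smad2* at 6.98 and *Tgfbr1* at 5.43 CPM per kilobase came next, with *Skil* overlapping both others, and *Tgfb3* at 1.26 and *Tgfbi* at 0.722 CPM per kilobase were the lowest. In Th17, *Tgfbr2* (39.2 CPM per kilobase) stood above *Tgfb1* (27.5), and *Smad7* (17.7) overlapped with *Smad4* (20.4) and *Smad3* (14.2). In Th1, *Tgfb1* (65.5 CPM per kilobase) and *Tgfbr2* (54.9) overlapped at the top, and *Smad3* (28.5), *Smad4* (26.2) and *Smad7* (24.6) overlapped below them. *Tgfbr1* was far below *Tgfbr2* in each cell type, at 5.43, 4.95 and 3.26 against 47.7, 39.2 and 54.9 CPM per kilobase in Naive, Th17 and Th1. With the longest transcript as the length, *Tgfb1* ranked first in all 3 cell types, at 81.3 CPM per kilobase in Naive.

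Other components of the pathway were taken from lists of 53 genes, of which 48 were tested. In Th17 compared with Naive, 3 of the 48 were called higher and 4 lower, against 4.01% and 1.43% of all genes tested. Th1 had 4 higher and 4 lower than Naive, against 4.64% and 2.81%. Between Th17 and Th1, 5 were higher and 2 lower in Th17, against 2.83% and 2.7%. Their median absolute log2 fold changes were 0.87, 0.66 and 0.59, beside 0.59, 0.50 and 0.60 over all genes tested. The number lower in Th17 than in Naive was 1 without Naive replicate 2 and 0 without either Th17 library. The number lower in Th1 than in Naive was 2 without Th1 replicate 1. Between Th17 and Th1, the number higher was 1 without either Th17 library and 2 without either Th1 library, and the number lower was 1 without Th17 replicate 1 and 0 without Th17 replicate 2.

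Among genes that process or free the ligand, *Furin* and *Thbs1* were called by edgeR in 2 and in 3 comparisons. *Furin*, the protease that cuts the TGF-β precursor, had 81.0 and 95.9 CPM in the Naive libraries, 488 and 202 CPM in Th17, and 2826 and 3018 CPM in Th1. In Th17 relative to Naive its log2 fold change was 1.97 (SE 0.42, adjusted p = 0.014), not called by edgeR and called by DESeq2. It rose 33.0-fold in Th1 relative to Naive (log2 fold change 5.05, SE 0.48, adjusted p = 0.00019), a call that held with each library left out. Its log2 fold change in Th17 compared with Th1 was -3.08 (SE 0.44, adjusted p = 0.002), and that call was lost without Th17 replicate 2, where the value was -2.59 (adjusted p = 0.011). Without Th17 replicate 1 it was -3.85. *Thbs1*, which encodes thrombospondin 1, a matrix and platelet protein that activates latent TGF-β, had 0.235 and 0.0495 CPM in the Naive libraries from 16 and 1 counts. It had 138 and 100.3 CPM in Th17 and 23.1 and 5.31 CPM in Th1, so that the 3 groups were separate. It was called higher in both cultures than in Naive, with log2 fold changes of 9.35 in Th17 and 6.31 in Th1, and these calls held with each library left out. The Th17 value was 11.13 without Naive replicate 1. The Th1 value was 8.09 without Naive replicate 1, 4.90 without Th1 replicate 1 and 6.98 without Th1 replicate 2. Between Th17 and Th1 its log2 fold change was 3.04 (adjusted p = 0.0093), and the call was lost without Th17 replicate 1 (2.81), Th17 replicate 2 (3.25) or Th1 replicate 2 (2.35). Without Th1 replicate 1 it was called at 4.49. The 8 megakaryocyte and platelet markers summed to 161 and 199 CPM in the Naive libraries, 408 and 598 CPM in Th17, and 430.1 and 659 CPM in Th1, with 6 called higher in Th17 than in Naive and 1 in Th1 than in Naive. Between Th17 and Th1, 1 was called higher and 1, *Itgb3*, lower. *Itgb3*, an integrin chain singled out after its values were seen, made up most of these sums in Naive and Th1, at 134 and 193 CPM in the Naive libraries, 115 and 101 CPM in Th17, and 345 and 619.7 CPM in Th1. The other 7 markers summed to 27.1 and 5.74 CPM in the Naive libraries, 293 and 497 CPM in Th17, and 84.8 and 38.9 CPM in Th1. That is the same order of groups as *Thbs1*, whereas with *Itgb3* kept the Th17 and Th1 sums overlapped. Within Th17, *Thbs1* was higher in replicate 1 and the sum of the other 7 markers was higher in replicate 2. The part of megakaryocytes and platelets in the *Thbs1* values was not tested.

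Calls for *Itgb8*, *Dcn* and *Fbn1*, named after their values were seen, rested on few counts, and each was lost in some removals of a library. *Itgb8*, a chain of an integrin that activates latent TGF-β, had 89 and 65 counts in Naive, 2 and 0 counts in Th17, and 0 counts in both Th1 libraries. It was at least 19.2-fold higher in Naive than in Th1, computed against a limit of 3 counts per library. *Dcn*, the TGF-β-binding proteoglycan decorin, had 36 and 20 counts in Th17 and 0 counts in both Th1 libraries, at least 7.13-fold higher by the same limit. *Fbn1*, a matrix protein to which latent complexes attach, had 449 and 25 counts in Th1 and 2 and 0 counts in Th17. *Lrrc32*, which encodes the surface protein GARP that holds latent TGF-β on T cells and is likewise named after its values were seen, had 20.0 and 39.0 CPM in the Naive libraries, 19.3 and 10.6 CPM in Th17, and 41.9 and 75.5 CPM in Th1. Its log2 fold change in Th17 compared with Th1 was -1.96 (SE 0.45, adjusted p = 0.018), not called by edgeR and called by DESeq2.

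Among 11 other receptors of the superfamily, 10 were tested and *Bmpr1a*, *Eng* and *Tgfbr3* were called. *Bmpr1a*, a type I receptor for bone morphogenetic proteins, had 0.969 and 1.39 CPM in the Naive libraries, 16.1 and 15.6 CPM in Th17, and 14.6 and 10.9 CPM in Th1. It rose in both cultures, by log2 fold changes of 3.77 in Th17 (SE 0.41, adjusted p = 0.00048) and 3.46 in Th1 (SE 0.40, adjusted p = 0.00051), and both calls held with each library left out. *Eng*, a co-receptor best known from endothelium and macrophages, had 35.3 and 13.1 CPM in the Naive libraries, 21.9 and 15.3 CPM in Th17, and 3.05 and 2.21 CPM in Th1. It fell in Th1 relative to Naive, with a log2 fold change of -3.19 (adjusted p = 0.0027), and this call was lost without Th1 replicate 2, at -2.99, and held at -2.30 without Naive replicate 1. It was also higher in Th17 than in Th1, at 2.80 (adjusted p = 0.0058), a call lost without Th17 replicate 1 (2.53) or 2 (3.03) and without Th1 replicate 1 (3.07) or 2 (2.6). *Tgfbr3*, the co-receptor betaglycan, had 53.4 and 80.7 CPM in the Naive libraries, 20.8 and 24.1 CPM in Th17, and 32.6 and 33.4 CPM in Th1. Its log2 fold change in Th17 relative to Naive was -1.58 (adjusted p = 0.0075), and the call was lost without Naive replicate 2 (-1.26) and without Th17 replicate 1 (-1.47) or 2 (-1.69). Of the other Smads, 3 were tested and 0 were called in any comparison, with 0 also at an unadjusted p-value under 0.05 and by DESeq2.

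**Figure D4:**
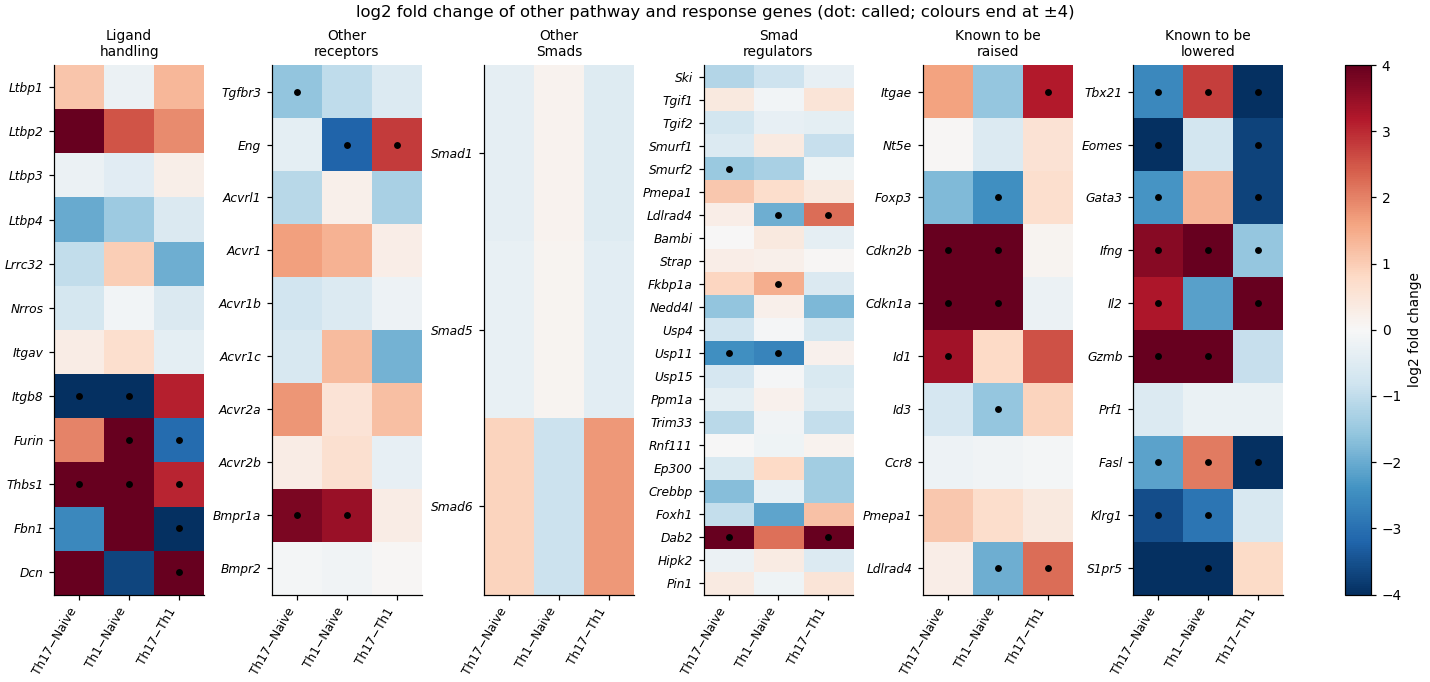
log2 fold change of the tested genes of 4 component lists and 2 lists of response genes in the 3 comparisons, with dots for genes called by edgeR and colours that end at -4 and 4. *Thbs1* and *Bmpr1a* are red in both comparisons with Naive, and *Tbx21* is blue in Th17 compared with Th1 at -5.31.

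Of 24 Smad regulators and partners, 23 were tested. *Usp11*, a deubiquitinase reported to act on the type I receptor, fell in both cultures, from 24.4 and 18.4 CPM in the Naive libraries to 4.27 and 3.45 CPM in Th17 and 3.88 and 2.97 CPM in Th1. Its log2 fold change was -2.46 in Th17 (SE 0.38, adjusted p = 0.0026) and -2.63 in Th1 (SE 0.38, adjusted p = 0.0017). The Th1 call held with each library left out, and the Th17 call was lost without Naive replicate 1 (-2.25), Th17 replicate 1 (-2.63) or Th17 replicate 2 (-2.33). *Smurf2*, a ubiquitin ligase that Smad7 brings to the receptor, had 107 and 131 CPM in the Naive libraries, 47.6 and 38.2 CPM in Th17, and 40.3 and 56.3 CPM in Th1. Its log2 fold change of -1.47 in Th17 was called (adjusted p = 0.0085), and that of -1.30 in Th1 was not (adjusted p = 0.012). The Th17 call was lost without either Naive library (-1.61 and -1.33) or either Th17 library (-1.63 and -1.32). *Ldlrad4*, a TGF-β-induced gene that limits Smad phosphorylation, had 15.5 and 21.6 CPM in the Naive libraries, 23.7 and 20.7 CPM in Th17, and 3.22 and 6.45 CPM in Th1. It was lower in Th1 than in Naive and higher in Th17 than in Th1, with log2 fold changes of -1.96 and 2.22 (adjusted p = 0.0096 and 0.0068). The first of these calls was lost without Naive replicate 1 (-2.19) or 2 (-1.71), Th17 replicate 1 (-1.96) or 2 (-1.95), or Th1 replicate 1 (-1.48). The second was lost without Th17 replicate 1 (2.13), Th17 replicate 2 (2.3) or Th1 replicate 1 (1.79). *Fkbp1a*, which encodes FKBP12, a protein that binds the resting type I receptor, had 171 and 192 CPM in the Naive libraries and 474 and 514 CPM in Th1, a log2 fold change of 1.44 (adjusted p = 0.0056). That call held without Th17 replicate 2 and was lost in the other 5 removals, at values between 1.36 and 1.54. *Dab2*, an endocytic adaptor that binds Smad2 and Smad3 and is also expressed in macrophages, is named after its values were seen. It had 83.0 and 43.2 CPM in Th17, 2 and 3 counts in Naive, and 27 and 0 counts in Th1, and was called higher in Th17 than in either group with each library left out. The macrophage markers given above were also highest in Th17. Within Th17, *Dab2* was higher in replicate 1, whereas the sum of those markers was higher in replicate 2 (877 and 1663 CPM). The part of macrophages in the *Dab2* values was not tested.

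Genes that TGF-β is known to raise were read from a list of 12 symbols, of which 10 were tested. *Ldlrad4*, described above, and *Pmepa1*, named only for this overlap, are also counted among the other components. Relative to Naive, Th17 had 3 of the 10 called higher (4.01% of all genes tested) and 0 lower by edgeR (1.43%), with 2 lower at an unadjusted p-value under 0.05 and 1 by DESeq2. Relative to Th1, 2 (*Itgae* and *Ldlrad4*) were called higher (2.83% of all genes). By edgeR 0 were called lower (2.7%), with 0 lower by either other count. In Th1, 2 of the 10 (*Cdkn1a* and *Cdkn2b*) were called higher than in Naive, against 4.64% of all genes. The median log2 fold change was 0.68 in Th17 and -0.34 in Th1 relative to Naive and 0.63 between Th17 and Th1. *Itgae*, the CD103 integrin chain, had 7.28 and 7.73 CPM in the Naive libraries, 22.8 and 22.7 CPM in Th17, and 2.82 and 2.21 CPM in Th1, with a log2 fold change of 3.16 between Th17 and Th1 (SE 0.36, adjusted p = 0.00064) that held with each library left out. *Id1*, a helix-loop-helix inhibitor, had 4.85 and 5.71 CPM in Th17 against 0.705 and 0.248 CPM in the Naive libraries, a log2 fold change of 3.36 (4.39 without Naive replicate 1), and the call was lost without Naive replicate 2 (2.89) or Th17 replicate 1 (3.5) or 2 (3.26). The cell cycle inhibitors *Cdkn1a* and *Cdkn2b* rose in both cultures, *Cdkn1a* by log2 fold changes of 6.14 in Th17 and 6.40 in Th1, which were 7.22 and 7.47 without Naive replicate 1. *Cdkn2b* had 17 and 0 counts in Naive, and its log2 fold changes were 5.04 in Th17 and 4.92 in Th1. Without Naive replicate 1 these were 10.65 and 10.52, and without Naive replicate 2 they were 4.42 and 4.31. *Cdkn2b* in Th17 was not called without Th17 replicate 1 (4.94). *Foxp3* and *Id3* were lower in Th1 than in Naive, with log2 fold changes of -2.45 and -1.54. *Foxp3*, the factor of regulatory T cells, had 39.2 and 69.9 CPM in the Naive libraries, 19.2 and 12.7 CPM in Th17, and 6.95 and 13.2 CPM in Th1, and its call was lost without Naive replicate 2 (-1.97) or Th1 replicate 1 (-2.01). The *Id3* call was lost in 5 removals, at values between -1.59 and -1.45. Without Th17 replicate 1, the number called higher in Th17 was 1 against Naive. Against Th1 it was 1 without either Th17 library or without Th1 replicate 1. The number lower in Th1 than in Naive was 3, against 2.81% of all genes, and it was 0 without Naive replicate 2 or Th1 replicate 1 and 1 without Naive replicate 1 or Th17 replicate 1.

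The list of 10 genes that TGF-β is known to lower in T cells split, and *Tbx21*, *Ifng* and *Gzmb* in it are also Th1 markers above. Between Th17 and Th1, 5 were called lower in Th17 and 1 higher, against 2.7% and 2.83% of all genes tested. *Tbx21*, the Th1 master regulator, *Eomes*, its relative, *Gata3*, the Th2 factor, and *Fasl*, a death ligand, were lower in Th17 than in Naive and than in Th1, with log2 fold changes against Th1 of -5.31, -3.70, -3.71 and -4.23. These calls against Th1 held with each library left out, with *Gata3* at -4.38 without Th17 replicate 1 and -3.11 without Th1 replicate 2. Against Naive, the *Fasl* call was lost without either Th17 library (-1.88 and -2.39), and the *Gata3* call without either Naive library (-2.6 and -2.09) or either Th17 library (-3.02 and -1.93). *Ifng*, the Th1 cytokine, had 4.55 and 4.56 CPM in the Naive libraries, 64.6 and 48.7 CPM in Th17, and 177 and 157 CPM in Th1, so that it rose in both cultures and was lower in Th17 than in Th1 (log2 fold change -1.56, adjusted p = 0.0045). Without either Th17 or either Th1 library that last difference was not called, at values between -1.77 and -1.37. *Il2*, the T cell growth factor gene, had 0.572 and 0.545 CPM in the Naive libraries, 5.52 and 4.92 CPM in Th17, and 6 and 3 counts in Th1, and was called higher in Th17 than in Th1 with each library left out. *Gzmb*, a cytotoxic granule protease, rose in both cultures, by log2 fold changes of 5.41 in Th17 and 6.34 in Th1, or 6.24 and 7.17 without Naive replicate 1. *Klrg1*, a receptor of effector cells, fell in both cultures, with log2 fold changes of -3.55 in Th17 and -2.91 in Th1, and the calls were lost in 3 and in 5 of 6 removals. The Th17 value of *Klrg1* was -2.96 without Naive replicate 1. Compared with Naive, 3 genes of this list were called higher and 5 lower in Th17, against 4.01% and 1.43% of all genes. In Th1, 4 were called higher and 2 lower, against 4.64% and 2.81%. The 2 lower in Th1 were *Klrg1* and *S1pr5*, the latter named after its values were seen. The CD8 T and NK cell markers given above were also highest in Naive, and the part of such cells in the values of this list was not tested. The 5 lower in Th17 were 3 without Naive replicate 1 and 2 without either Th17 library, and the 2 lower in Th1 were 0 or 1 in each of the 6 removals.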

How the data were processed

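The 6 RNA-Seq libraries comprised 2 per cell type (Naive, Th17 and Th1). The authors deposited raw counts per gene symbol for each library, made with HISAT2 (v2.2.1) on mm10 and HTSeq (v0.13.5) per the labels. The methods name default HTSeq settings and removal of duplicates, whereas the supplementary code sets the reverse-stranded option and shows no step for duplicates. The annotation is not given in the sources used here.

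Counts were tested with edgeR 4.0.16 in R 4.3.3. Of 24223 genes, the 13607 that passed filterByExpr were scaled by TMM and fitted with cell type as its only term by the quasi-likelihood F-test. Calls required an adjusted p-value (Benjamini-Hochberg) under 0.01 together with a log2 fold change beyond 1 in either direction. The fit was tested on simulated data. CPM were computed with TMM-scaled library sizes, with 2 as prior count on the log2 scale. The standard error is the absolute log2 fold change divided by the square root of F. DESeq2 1.42.0 was an alternative. The other alternatives were RLE scaling, library size alone, other filters and thresholds, a replicate block, thinning, fits of 4 libraries, leaving out each library, and transcript length.

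The members and gene lists were chosen with earlier results of these data known. Some genes of these lists are not reported here and were left out of the list counts and sums. Other than the members, genes are named if called in any comparison with more than 3 counts in 4 libraries or more, at most 8 per list by adjusted p-value. Pathway and response genes named outside this rule are identified as such, and marker genes are named to describe their lists. Gene positions come from GENCODE vM21 (GRCm38, also called mm10) and the promoter sequence from RefSeq (GRCm38.p6). With 2 libraries against 2, an exact permutation test cannot reach a p-value below 0.333, so p-values come from the model alone. Counting error is small at this depth except for genes with a handful of counts, and sequenced reads are not independent molecules. All 6 libraries were used.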

Additional observations from a re-analysis of the deposited data

How the results depend on the processing

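Of 30 member log2 fold changes under 17 other settings, 507 values were obtained and 10 changed sign, all for differences that no setting called. The settings that changed only the threshold on the adjusted p-value or on the fold change repeat the main values, so these could not change sign. *Tgfbr2* in Th1 compared with Naive was -0.07 with library size alone, and its range with 1 library left out was -0.22 to 0.57. The other sign changes came from leaving out 1 library. In Th17 compared with Naive, the ranges were -0.16 to 0.36 for *Tgfb3*, -0.30 to 0.04 for *Tgfbr1*, -0.25 to 0.10 for *Smad2* and -0.67 to 0.03 for *Smad3*. For *Smad4* in Th1 compared with Naive the range was -0.41 to 0.16, and for *Smad2* in Th17 compared with Th1 it was -0.06 to 0.30. The called members kept their direction in all settings. In other fits than those that left out a library, *Tgfbi* between Th17 and Th1 was between 6.36 and 6.67.

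Members called higher in Th17 than in Naive numbered 0 when at least 10 counts were required in every library, a filter that removed *Tgfbi*. Members called lower in Th17 than in Naive numbered 1 with DESeq2, with no filter, with the replicate block in DESeq2 and at an adjusted p-value under 0.05. Members lower in Th1 than in Naive numbered 2 under the same 4 settings, 0 with the stricter filter and 0 with only the 4 libraries compared. Members higher in Th17 than in Th1 numbered 1 with the stricter filter. Members lower in Th17 than in Th1 numbered 1 with DESeq2, with the block in DESeq2 and at an adjusted p-value under 0.05, and 2 with no filter. With 1 library left out, members numbered 0 to 1 higher in Th17 than in Naive, 0 to 1 lower in Th1 than in Naive and 1 to 2 higher in Th17 than in Th1.

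Other components higher in Th17 than in Naive numbered 5 with DESeq2, with the block in DESeq2 and with the 4 libraries compared, 6 with no filter, 7 at an adjusted p-value under 0.05 and 1 with the stricter filter. Those lower numbered 7 with DESeq2 and at an adjusted p-value under 0.05, 9 with no filter, 2 with library size alone and 1 with the stricter filter. Those higher in Th17 than in Th1 numbered 3 with library size alone and 2 with the stricter filter. Those lower numbered 6 with DESeq2, with the block in DESeq2 and at an adjusted p-value under 0.05, 7 with no filter, and 1 with library size alone and with the stricter filter. With 1 library left out, components numbered 0 to 4 lower in Th17 than in Naive, 2 to 3 lower in Th1 than in Naive, 1 to 5 higher in Th17 than in Th1 and 0 to 3 lower. The cause was not tested, except that the stricter filter tests fewer genes.

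Replicate numbers were shared between cell types, but the deviations of same-numbered libraries correlated at -0.231 (Naive and Th17), 0.168 (Naive and Th1) and 0.077 (Th17 and Th1) across genes, so the numbers were not taken to pair the samples. With the replicate block in edgeR, members called were 1 higher and 0 lower in Th17 than in Naive, 0 and 1 in Th1, and 2 and 0 in Th17 compared with Th1. Library size alone moved the median of all genes by -0.24 in Th1 compared with Naive and by 0.21 in Th17 compared with Th1, with 399 genes called higher and 363 lower in the former in place of 631 and 383, and 352 and 202 in the latter in place of 385 and 367. At this depth, *Tgfbi* in Th1 and the genes described by counts are among the values limited by counting. Others are *Id1* (5 counts) and *Cdkn1a* (13 counts) in Naive replicate 2. *Klrg1* is another, with 8 counts in Th17 replicate 2 and 9 counts in Th1 replicate 2.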
